A study of Mus musculus with 8 samples.

Results

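The serotonin receptors examined here were the 10 genes Htr1a, Htr1b, Htr1d, Htr1f, Htr2a, Htr2c, Htr4, Htr5a, Htr5b and Htr7, taken by gene symbol from a count table of 18939 genes. Each of the 10 genes had a single row in the table. The list was drawn up with earlier results of these data known. The libraries came from translating ribosome affinity purification (TRAP), which pulls down ribosomes tagged with EGFP-L10a from the cells that carry the tag and sequences the RNA bound to them. The mice were OPRM1cre X EGFP-L10a on a C57Bl/6J background. In these mice Cre is inserted at Oprm1, the gene of the mu-opioid receptor (MOR), and switches on EGFP-L10a from the Rosa26 locus, so the tag marks every cell of the dissected tissue in which the driver is or has been active. Mice were 8 to 12 weeks old when exposure began. The morphine group (4 libraries, replicates 3, 4, 7 and 8) drank morphine in 0.2% saccharin, raised stepwise to 0.5 mg/ml, for 11 days, and the control group (4 libraries, replicates 1, 2, 5 and 6) drank 0.2% saccharin by the methods of the study, whereas the labels call the control treatment drinking water. By the methods of the study, tissue of 2 mice of the same sex, dissected grossly around the paraventricular thalamus (PVT), was pooled for each library, which the Y-linked counts of control replicate 5 given below make uncertain for that library. Each group held 2 male and 2 female libraries by the labels.

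Serotonin reaches the midline thalamus from neurons of the raphe nuclei and acts there through a family of receptors. All of the receptors except the channel-forming Htr3 subunits are coupled to G proteins. The Htr1 receptors and Htr5a signal through Gi/o proteins, as MOR does, which lower cyclic AMP and open GIRK potassium channels. Htr2a and Htr2c signal through Gq and phospholipase C, and Htr4 and Htr7 through Gs, which raises cyclic AMP. The coupling of Htr5b is not settled.

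In the rows kept, 1 per gene, libraries held between 31151106 and 47582947 counts, and between 16920 and 17441 genes had a count above 0. Values are counts per 1000000 counts of the library in these rows (CPM) after TMM scaling unless stated otherwise. Oprm1 itself was present in every library, at 14 to 32.3 CPM, with a mean of 25.3 CPM in control and 16.5 CPM in morphine libraries. The log2 fold change of Oprm1 was -0.62 (unadjusted P = 0.00649, adjusted P = 0.207 in edgeR), and the part of this difference in the receptor values was not tested. Markers of thalamic neurons were abundant, with the glutamate transporter Slc17a6 at 215 to 350 CPM and the transcription factor Tcf7l2 at 686 to 1360 CPM. The GABA-synthesizing enzyme Gad1 was also abundant, at 338 to 647 CPM. Control replicate 5, labelled female, held counts of 4 Y-linked genes at 28.7% to 35.8% of the male mean, whereas no other female library exceeded 2 counts for any of them. In bulk libraries such as these, fewer cells of a type and less RNA per cell cannot be told apart.

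All 10 receptors were detected in all 8 libraries, and Htr2c and Htr7 had the highest levels. Detection throughout holds for this list and not for the whole family. The list leaves out Htr2b, Htr3a, Htr3b and Htr6, which were low, with 0 counts of Htr2b and Htr3b in some libraries. To compare genes, CPM was divided by transcript length in kilobases (CPM per kb). Htr2c stood at 15.9 ± 4.57 CPM per kb (mean ± SD, n = 8 libraries) and Htr7 at 12.6 ± 2.71 CPM per kb. Htr1b followed at 9.81 ± 2.89 CPM per kb. Htr1d (3.36 ± 0.81), Htr1a (2.73 ± 0.54) and Htr5a (2.60 ± 0.41 CPM per kb) formed a middle group. Htr5b (1.67 ± 0.40) and Htr2a (1.49 ± 0.51 CPM per kb) were lower. Htr4 had 0.979 ± 0.258 CPM per kb and Htr1f was the lowest of the 10, at 0.635 ± 0.173 CPM per kb. Htr2c and Htr7 together made up 43.9% to 64.9% of the summed per-kb level of the 10 receptors in a library, with a median of 56.6%. This share rests on the short transcript length of Htr1b described below and was not computed with the longest transcripts.

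Several neighbors in this order did not differ beyond their spread. Htr2c exceeded Htr7 in 6 of 8 libraries, Htr7 exceeded Htr1b in 6, Htr1d exceeded Htr1a in 6, Htr1a exceeded Htr5a in 5, and Htr5b exceeded Htr2a in 6. The order held in 8 of 8 libraries for Htr1b over Htr1d, Htr5a over Htr5b, Htr2a over Htr4 and Htr4 over Htr1f, and for Htr1b and Htr1d the ranges did not overlap. The place of Htr1b depends on the transcript length used. The transcript matched to its row has 1273 bases, and with the longest annotated transcript of 4724 bases Htr1b came to 2.64 ± 0.78 CPM per kb, near Htr1a and Htr5a.

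The sequences before the start sites of the receptors at either end of this order are shown from the RefSeq promoter table on GRCm38.p6, each running 5′ to 3′ from 250 to 71 bases before the start site of that table, with every CG dinucleotide in capitals. The Htr2c window lies at chrX:146962263-146962442 on the plus strand and the Htr1f window at chr16:65105855-65106034 on the minus strand. For Htr2c the table places the start site downstream of the first annotated base of the gene, and the window ends before that base.
Htr2c: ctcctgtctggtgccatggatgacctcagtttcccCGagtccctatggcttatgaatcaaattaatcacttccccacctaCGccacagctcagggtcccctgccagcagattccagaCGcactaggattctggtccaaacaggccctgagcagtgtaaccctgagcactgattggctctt
Htr1f: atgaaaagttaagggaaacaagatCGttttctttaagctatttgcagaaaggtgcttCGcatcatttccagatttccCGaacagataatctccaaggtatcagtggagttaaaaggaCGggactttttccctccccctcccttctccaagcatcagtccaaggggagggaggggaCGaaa
The Htr2c window held 3 CG dinucleotides and the Htr1f window 5, against a median of 4 over 32851 windows of the same 180 bases. For 8 of the 10 receptors the table had a window, and 6 of these windows lay outside the annotated gene. Those 6 held 2 to 5 CG dinucleotides and 45.6% to 53.9% G plus C, against a median of 51.1% over all windows. The letters GGGCGG, searched on both strands, occurred in 2 of the 6, those of Htr1a and Htr2a, and in 21.1% of all windows. These are descriptions of sequence, and no test was attached to them.

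**Figure D1:**
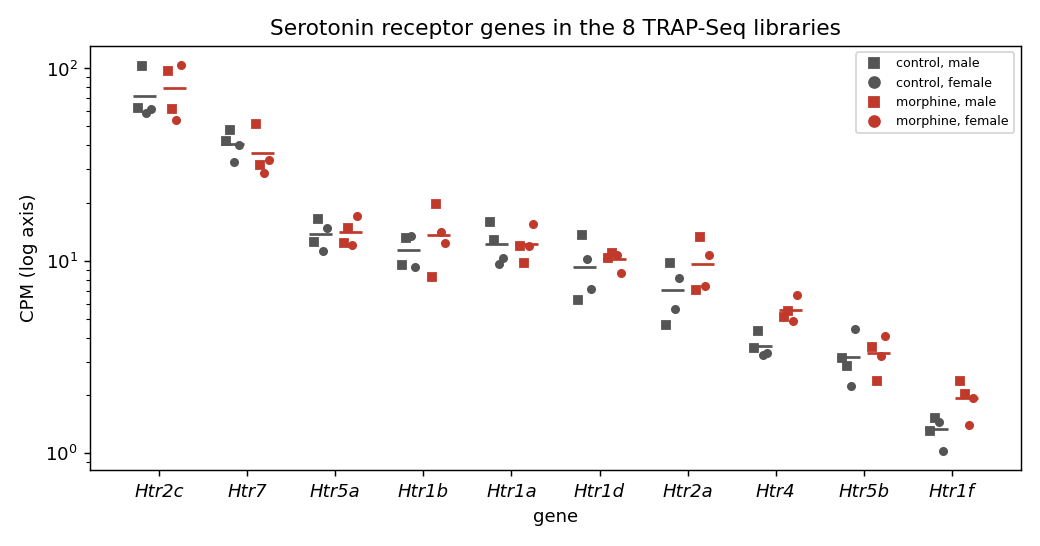
CPM (y axis, log scale) of each of the 10 serotonin receptor genes (x axis, in order of mean CPM) in the 8 libraries. Points are libraries, squares male and circles female, gray for control and red for morphine, and short lines are group means. CPM is not divided by length here, so heights compare groups within a gene, and only for Htr4 do the groups not overlap (4.90 to 6.66 CPM with morphine, 3.25 to 4.32 CPM in control).

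Whether chronic morphine changed the RNA of these receptors was asked by comparing the 4 morphine with the 4 control libraries. By the quasi-likelihood test of edgeR, with Benjamini-Hochberg adjusted P under 0.05 over all genes, 0 of the 10 receptors and 37 genes in all (0.195% of those tested) were called. The log2 fold changes of the receptors ran from -0.16 to 0.62, with 9 of 10 above 0 and a median of 0.13, against a median of 0.0088 over all genes. At an unadjusted P under 0.05 there were 2 of 10 receptors, Htr4 and Htr1f, both higher with morphine, where 12.1% of all genes passed, 6.79% as higher and 5.31% as lower. For 1 of 10 receptors, Htr4, the morphine libraries were all higher than the control libraries, as they were for 3.34% of genes. These counts of receptors were not tested against the background.

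**Figure D2:**
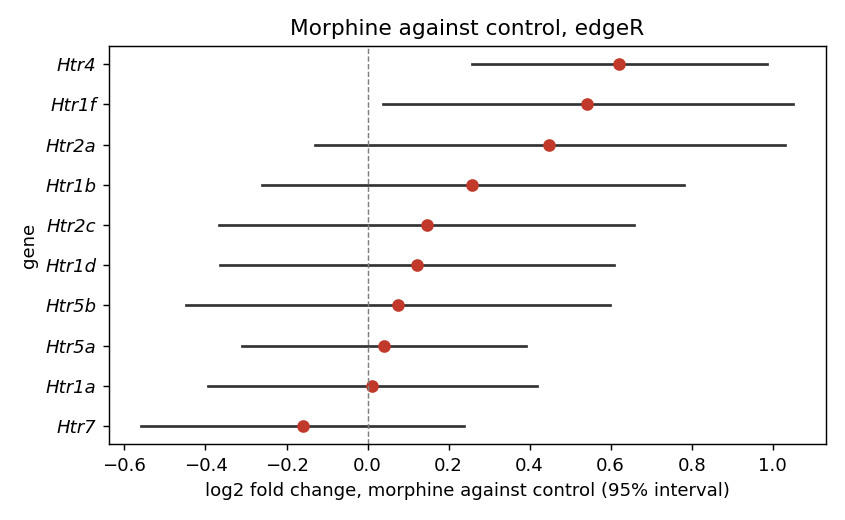
Log2 fold change of each serotonin receptor gene, morphine against control (x axis), from edgeR's quasi-likelihood fit. Points are estimates and lines are 95% intervals for 4 against 4 libraries. The intervals of Htr4 (0.26 to 0.98) and Htr1f (0.037 to 1.05) lie above 0, and those of the other 8 receptors span 0.

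Htr4 (chromosome 18, 62323546 to 62503027, plus strand of GRCm38) encodes a Gs-coupled receptor. It measured 3.51, 4.32, 3.25 and 3.31 CPM in control replicates 1, 2, 5 and 6, and 5.09, 5.48, 4.90 and 6.66 CPM in morphine replicates 3, 4, 7 and 8. Every morphine library was above every control library, with group means of 5.53 ± 0.79 and 3.60 ± 0.49 CPM (SD, n = 4 each). The log2 fold change was 0.62 (SE 0.17, 95% interval 0.26 to 0.98), with an unadjusted P = 0.0031 and an adjusted P = 0.161 (edgeR, quasi-likelihood, Benjamini-Hochberg). The call depended on the tool. DESeq2 gave Htr4 a log2 fold change of 0.63 with an adjusted P = 0.0193, and an adjusted P = 0.042 with sex in the model, where it called 502 of 15260 genes (3.29%) without sex. Leaving out each library in turn kept the edgeR fold change between 0.52 and 0.72. The counts behind these values were 122 to 324 per library, and the direction was the same in males and females.

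**Figure D3:**
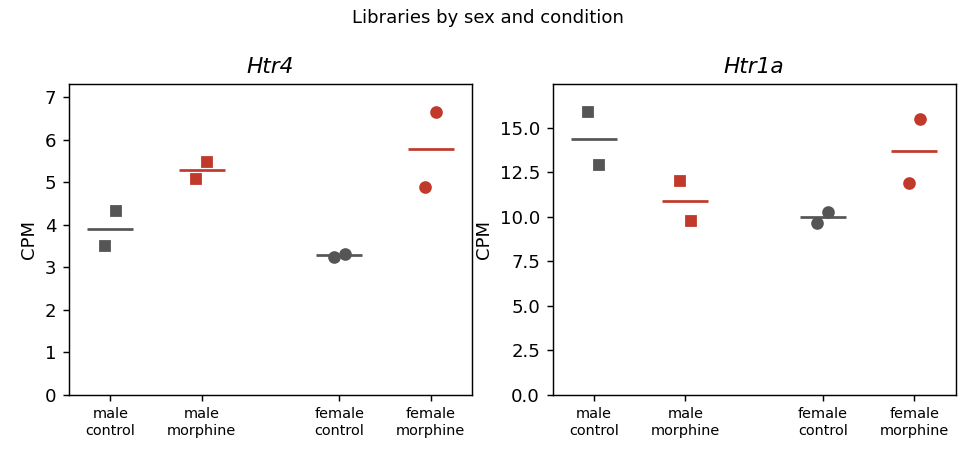
Htr4 (left) and Htr1a (right) in CPM by sex and condition, with 2 libraries per column. Points are libraries and lines are the means of the 2. For Htr4 both sexes are higher with morphine, and for Htr1a the male morphine libraries lie below and the female morphine libraries above the controls of their sex.

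Summed markers of choroid plexus and hippocampal fields did not overlap between the groups, whereas those of the other cell types did. They are given beside Htr4. Of 13 choroid plexus genes, 12 were above 0 in log2 fold change. At an unadjusted P under 0.05, 11 were higher, against 6.79% of all genes, and 0 were called by edgeR after Benjamini-Hochberg adjustment. Their summed level was 41.9 to 160 CPM in control and 217 to 679 CPM in morphine libraries, with Ttr, the transthyretin gene, at 0.949 to 44.5 CPM in control and 69.9 to 302 CPM in morphine libraries. The summed level of 9 genes of telencephalic pyramidal neurons was 136 to 404 CPM in control and 315 to 694 CPM in morphine libraries, with Neurod6 at 1.51 to 13.7 and 30.6 to 70.7 CPM. For 7 genes of hippocampal fields the sums were 30.4 to 48.9 and 63.4 to 126 CPM. Thalamic markers summed to 2370 to 3110 CPM in control and 1780 to 3110 CPM in morphine libraries, and 8 of 8 had a log2 fold change below 0. Oligodendrocyte markers summed to 122 to 1230 CPM in control and 567 to 1490 CPM in morphine libraries and astrocyte markers to 539 to 663 and 476 to 704 CPM, while microglial and endothelial markers summed to at most 5.65 CPM. Striatal markers were high in morphine replicates 4 (1750 CPM) and 7 (1430 CPM), and 216 to 691 CPM elsewhere. With a marker score added to the model, the log2 fold change of Htr4 was 0.43 with the choroid plexus score (adjusted P = 1 in edgeR), 0.65 with the telencephalic score (adjusted P = 0.758) and 0.60 with the medial habenula score (adjusted P = 0.907). Over all genes these fits called 0, 1 and 0. Because the choroid plexus sums did not overlap between the groups, the fit with that score cannot cleanly separate it from morphine. No conclusion on Htr4 is drawn from it.

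**Figure D4:**
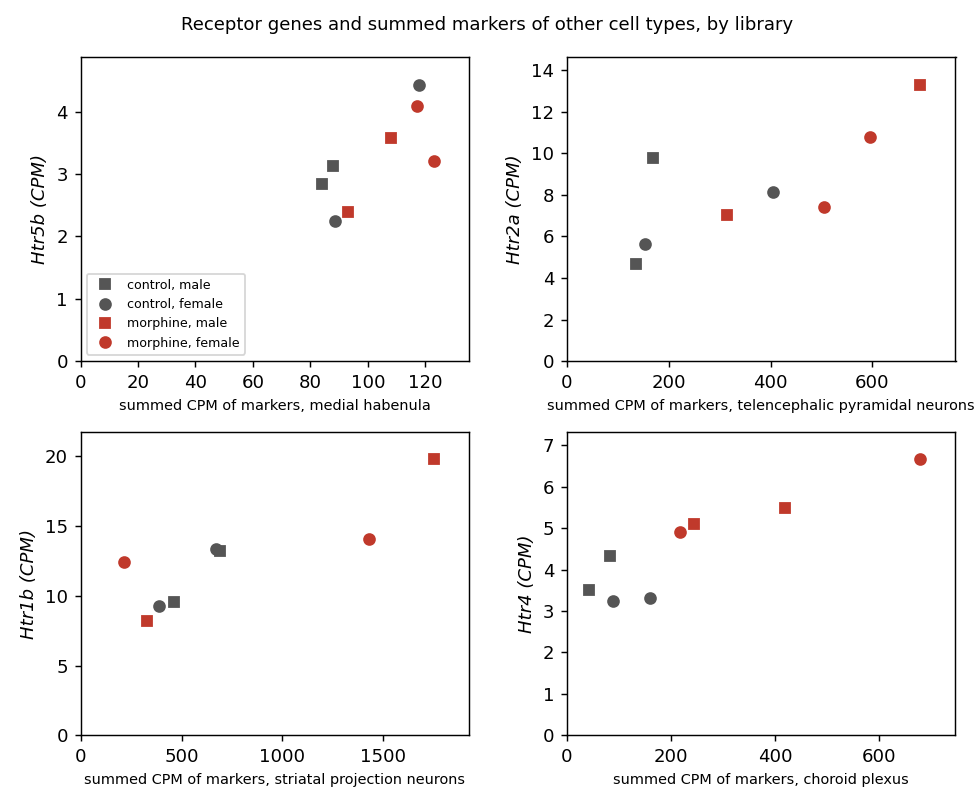
CPM of Htr5b, Htr2a, Htr1b and Htr4 (y axes) against the summed CPM of the markers of medial habenula, telencephalic pyramidal neurons, striatal projection neurons and choroid plexus, in that order (x axes), 1 panel per pair. Points are libraries, squares male and circles female, gray for control and red for morphine. The pairs were picked after their values were seen, and the panels show values side by side: the highest Htr1b (19.8 CPM) and the highest striatal sum (1750 CPM) are in morphine replicate 4, the highest Htr4 (6.66 CPM) and choroid plexus sum (679 CPM) in morphine replicate 8.

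Htr7 (chromosome 19, 35958415 to 36058133, minus strand), the other Gs-coupled receptor, measured 42.1, 48.1, 32.5 and 39.9 CPM in the control libraries and 51.6, 31.7, 28.8 and 33.4 CPM in the morphine libraries. It was the only one of the 10 receptors with a log2 fold change below 0, at -0.16 (SE 0.18, 95% interval -0.56 to 0.24, adjusted P = 0.742 in edgeR). Morphine replicate 3 was the highest of all 8 libraries and the other 3 morphine libraries lay between 28.8 and 33.4 CPM, so the groups overlapped. Leaving out each library in turn gave -0.38 (without morphine replicate 3) to -0.068 (without control replicate 2). With marker scores in the model it was -0.034 (choroid plexus), 0.094 (telencephalic) and -0.0074 (medial habenula).

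Among the Gq-coupled receptors, Htr2c (X, 146962464 to 147197277, plus strand) measured 62.7, 103, 58.9 and 61.8 CPM in the control libraries and 96.7, 61.8, 53.9 and 104 CPM in the morphine libraries. Control replicate 2 and morphine replicates 3 and 8 stood well above the other 5 libraries, which lay between 53.9 and 62.7 CPM. The log2 fold change was 0.15 (SE 0.23, 95% interval -0.37 to 0.66, adjusted P = 0.836 in edgeR). With marker scores in the model it was -0.12 (choroid plexus), 0.44 (telencephalic) and 0.15 (medial habenula). Htr2c hosts a snoRNA gene, Snora35, and several miRNA genes. Htr2a (chromosome 14, 74640874 to 74706859, plus strand) measured 4.67, 9.79, 5.62 and 8.14 CPM in the control libraries and 7.03, 13.3, 7.40 and 10.8 CPM in the morphine libraries. Its highest library was morphine replicate 4 and its lowest was control replicate 1, with overlap between the groups. The estimate for Htr2a was 0.45 on the log2 scale (SE 0.26, 95% interval -0.13 to 1.03, adjusted P = 0.544 in edgeR). Leaving out each library in turn gave 0.25 (without morphine replicate 4) to 0.65 (without control replicate 2). It became -0.41 with the choroid plexus score, -0.07 with the telencephalic score and 0.24 with the medial habenula score in the model. Htr2a also varied most between libraries of the 10 receptors, with a coefficient of variation of 34.0%, against 15.9% for Htr5a, the lowest.

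Among the Gi/o-coupled receptors, Htr1f (chromosome 16, 64924729 to 65105784, minus strand), a receptor that several migraine drugs act on, measured 1.31, 1.53, 1.46 and 1.03 CPM in the control libraries and 2.39, 2.03, 1.40 and 1.95 CPM in the morphine libraries. Morphine replicate 7 lay within the control range and the other 3 morphine libraries lay above it. The log2 fold change was 0.54 (SE 0.23, 95% interval 0.037 to 1.05, unadjusted P = 0.0375, adjusted P = 0.376 in edgeR), from 38 to 95 counts per library. Leaving out each library in turn gave 0.42 to 0.65, and the choroid plexus, medial habenula and telencephalic scores in the model gave 0.68, 0.84 and 0.98 (adjusted P = 1, 0.906 and 0.737 in edgeR).

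Htr1a (chromosome 13, 105443693 to 105448133, plus strand), which is also the autoreceptor on the cell bodies of serotonin neurons, measured 15.9, 12.9, 9.64 and 10.3 CPM in the control libraries and 12, 9.75, 11.9 and 15.5 CPM in the morphine libraries. The group means were 12.2 ± 2.83 and 12.3 ± 2.37 CPM, and the log2 fold change was 0.012 (SE 0.19, 95% interval -0.40 to 0.42, adjusted P = 0.987 in edgeR). The choroid plexus, telencephalic and medial habenula scores in the model gave 0.22, 0.26 and 0.13. The markers of serotonin neurons were low, with Tph2, the neuronal enzyme of serotonin synthesis, at 0.487 to 2.57 CPM and the serotonin transporter Slc6a4 at 0 to 1.15 CPM. Their summed level was 2.33 to 6.46 CPM in control and 1.82 to 4.65 CPM in morphine libraries.

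Htr1b (chromosome 9, 81628291 to 81633832, minus strand), known as a receptor on axon terminals that limits transmitter release, measured 9.54, 13.2, 13.4 and 9.26 CPM in the control libraries and 8.21, 19.8, 14.1 and 12.4 CPM in the morphine libraries. Morphine replicate 3 was its lowest library and morphine replicate 4, where striatal markers were also high, was its highest. The log2 fold change was 0.26 (SE 0.24, 95% interval -0.26 to 0.78, adjusted P = 0.677 in edgeR), 0.024 without morphine replicate 4 and 0.44 without morphine replicate 3, the ends of the range when each library was left out. It was 0.092 with the choroid plexus score, 0.13 with the telencephalic score and 0.33 with the medial habenula score. The gene overlaps D430036J16Rik on the other strand, and whether strand was used in the counting was not stated. Htr1d (chromosome 4, 136423522 to 136444405, plus strand), its close relative, measured 6.26, 13.7, 10.2 and 7.19 CPM in the control libraries and 10.4, 11.0, 10.7 and 8.61 CPM in the morphine libraries. The control libraries spread more widely than the morphine libraries, which lay inside their range, and the log2 fold change was 0.12 (SE 0.22, 95% interval -0.36 to 0.61, adjusted P = 0.86 in edgeR). It was 0.063 with the choroid plexus score, 0.42 with the telencephalic score and 0.12 with the medial habenula score.

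Htr5a (chromosome 5, 27841716 to 27855086, plus strand) measured 12.5, 16.6, 11.2 and 14.8 CPM in the control libraries and 12.4, 14.9, 12.1 and 17.2 CPM in the morphine libraries. The group means of 13.8 ± 2.42 and 14.1 ± 2.37 CPM differed by less than 1 SD, with a log2 fold change of 0.040 (SE 0.16, 95% interval -0.31 to 0.39, adjusted P = 0.943 in edgeR). Htr5b (chromosome 1, 121509758 to 121529312, minus strand), a gene that encodes a receptor in mice but not in humans, measured 3.13, 2.84, 2.25 and 4.43 CPM in the control libraries and 3.57, 2.39, 3.21 and 4.09 CPM in the morphine libraries. Its groups overlapped, with a log2 fold change of 0.076 (SE 0.24, 95% interval -0.45 to 0.60, adjusted P = 0.923 in edgeR). Htr5b overlaps the pseudogene Gm8217.

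The other serotonin receptor genes of the table were low. Htr6, a Gs-coupled receptor, measured 0.615, 0.675, 0.406 and 0.516 CPM in the control libraries and 0.562, 1.54, 0.877 and 1.01 CPM in the morphine libraries, from 17 to 51 counts. Its log2 fold change was 0.84 (SE 0.33, adjusted P = 0.332 in edgeR), and 0.58, 0.46 and 0.98 with the choroid plexus, telencephalic and medial habenula scores. Htr3a, a subunit of the serotonin-gated channel, lay between 0.454 and 2.84 CPM, with a log2 fold change of 0.084 (adjusted P = 0.962 in edgeR). Htr3b had 0 to 9 counts and Htr2b 0 to 3 counts per library. The fitted log2 fold changes, -1.90 for Htr3b (adjusted P = 0.493) and 2.21 for Htr2b (adjusted P = 0.49, both in edgeR), rest on these few counts.

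Sex was compared with condition in the model. None of the 10 receptors was called, and 1 gene was called in all (0.00528% of those tested). At an unadjusted P under 0.05 there was 1 of 10 receptors, Htr7, where 3.10% of genes passed. Htr7 measured 43.4 ± 8.73 CPM in the 4 libraries labelled male and 33.6 ± 4.60 CPM in the 4 labelled female, which include control replicate 5 with its Y-linked counts. Female minus male was -0.37 on the log2 scale (SE 0.15, unadjusted P = 0.0302, adjusted P = 1 in edgeR), and -0.33 without control replicate 5, within a range of -0.48 to -0.20 when each library was left out. The other 9 receptors lay between -0.29 and 0.23, and for 1 of the 10 receptors, Htr5b, the female level was higher.

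Whether the effect of morphine differed between the sexes was tested by an interaction term, which called 0 genes in edgeR with Benjamini-Hochberg adjustment, with 325 genes at an unadjusted P under 0.05 (1.72%) and 4 genes called by DESeq2. Of the 10 receptors 1 passed unadjusted, Htr1a. The male control libraries measured 15.9 and 12.9 CPM and the male morphine libraries 12 and 9.75 CPM, whereas the female control libraries measured 9.64 and 10.3 CPM and the female morphine libraries 11.9 and 15.5 CPM. Female effect minus male effect was 0.86 on the log2 scale (SE 0.30, unadjusted P = 0.0139, adjusted P = 1 in edgeR). The 2 female control libraries include control replicate 5, and without it the difference was 0.82.

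The signaling partners of the receptors were examined as lists, and edgeR with Benjamini-Hochberg adjustment called 0 genes in any of them. Of 12 genes of serotonin synthesis, transport and breakdown, 1 was higher and 2 were lower at an unadjusted P under 0.05, against 6.79% and 5.31% of all genes. Their median log2 fold change was -0.038. The lowest P values were those of the monoamine oxidases, Maob (66.3 ± 25.9 CPM in control and 36.1 ± 12.9 in morphine libraries, log2 fold change -0.88, adjusted P = 0.25) and Maoa (69.1 ± 10.4 and 51.1 ± 10.6 CPM, log2 fold change -0.44, adjusted P = 0.285), both by edgeR. With the choroid plexus score in the model they came to -0.23 and -0.16, with the telencephalic score to -0.62 and -0.24, and with the medial habenula score to -0.65 and -0.33. Of 14 receptor partners and regulators, 0 were higher and 3 were lower unadjusted, against 6.79% and 5.31% of all genes, with a median of -0.094. Cc2d1a, known as a repressor of Htr1a transcription, measured 82.8 ± 5.63 and 64.3 ± 8.58 CPM with every morphine library below every control library (log2 fold change -0.36 in edgeR, adjusted P = 0.208). The share of all genes that lie wholly below in this way was not counted. Arrb1, a beta-arrestin, measured 535 ± 47.2 and 455 ± 29.3 CPM.

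Of 9 Gi/o proteins and GIRK channels, 2 were higher and 1 was lower unadjusted, against 6.79% and 5.31% of all genes. Their median log2 fold change was 0.00030. Kcnj3, a GIRK channel subunit, measured 58.3 ± 3.05 CPM in control and 73.7 ± 3.86 CPM in morphine libraries. The morphine libraries were all higher than the control libraries, as they were for 3.34% of all genes. Its log2 fold change was 0.34, with an adjusted P = 0.143 in edgeR, against an adjusted P = 0.00927 in DESeq2. The partner subunit Kcnj6 measured 27.7 ± 3.25 and 38.1 ± 6.58 CPM (log2 fold change 0.46, adjusted P = 0.205 in edgeR). With the choroid plexus score in the model Kcnj3 came to 0.18 and Kcnj6 to 0.099, with the telencephalic score to 0.22 and 0.096, and with the medial habenula score to 0.27 and 0.34. Of 7 Gq proteins and phospholipase C beta genes, none passed unadjusted, against 12.1% of all genes, with a median of 0.12. Plcb4 measured 341 ± 89.3 and 280 ± 34.5 CPM, and Plcb1 183 ± 25.8 and 246 ± 106 CPM.

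Of 10 Gs proteins and cyclic AMP effectors, 1 was higher and 2 were lower unadjusted, against 6.79% and 5.31% of all genes. Their median log2 fold change was -0.12. Rapgef3, a cyclic AMP-activated exchange factor also called Epac1, measured 26.3 ± 6.63 CPM in control and 16.5 ± 2.22 CPM in morphine libraries, with no overlap (log2 fold change -0.67, adjusted P = 0.152 in edgeR and 0.0212 in DESeq2). Its relative Rapgef4 lay the other way, at 134 ± 18.2 and 164 ± 9.39 CPM, also with no overlap (log2 fold change 0.29, adjusted P = 0.309 in edgeR). All morphine libraries were above all control libraries for 3.34% of all genes, and the share with all of them below was not counted. With the choroid plexus, telencephalic and medial habenula scores Rapgef4 came to 0.032, 0.041 and 0.13, whereas Rapgef3 came to -0.75, -0.96 and -0.88.

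The receptors differed in how they varied across the 8 libraries. Over the 45 pairs of receptors, Pearson's r of log2 CPM was above 0 for 34 and ran from -0.68 for Htr1b with Htr7 to 0.77 for Htr5a with Htr2a, with a median of 0.29. These are descriptions over libraries that share the group difference and the depth differences, and no P is attached. The 3 genes most like each receptor were taken from 12988 genes compared. Htr2a was closest to Wnt7b (r = 0.987), Spns1 (0.976) and Slc30a3 (0.974). Htr5b was closest to Fam40a (0.942), Gpr151 (0.923) and Chrnb4 (0.903), the last 2 being in the medial habenula marker list. Htr4 was closest to Immp2l (0.993), 6430704M03Rik (0.983) and Faah (0.981), the enzyme that degrades anandamide. Htr2c was closest to Amn (0.992), Tex2 (0.987) and Nell1 (0.979), and Htr7 to Rbm8a (0.976), Dusp28 (0.974) and Ncs1 (0.969). Htr1a was closest to Cd274 (0.949), Osbpl2 (0.919) and Stk33 (0.915), and Htr1b to genes that included Mrpl36 (0.967) and Sv2c (0.954). Htr1d was closest to Gli3 (0.918), Trpt1 (0.917) and Fblim1 (0.914). Htr1f was closest to Tomm6 (0.995), Bola3 (0.984) and Mt3 (0.974), and Htr5a to Rhbdd3 (0.972), Sema4c (0.971) and Hyou1 (0.970).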

How the data were processed

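TRAP RNA from 8 libraries, each pooling PVT tissue of 2 mice, was sequenced by the authors as paired reads from a directional kit. The authors deposited unnormalized whole-number counts, with a row for each RefSeq transcript. The submitters' processing notes name mm10 and DESeq2, and the methods of the study describe Salmon and tximport. The tool that made the deposited counts and its use of strand are not given in the sources used here. Of 24488 transcript rows, the row with the highest total was kept for each of 18939 genes, and 0 columns lacked a sample. Group, sex and replicate came from the labels.

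Counts were TMM-scaled and tested with edgeR 4.0.16 in R 4.3.3 (quasi-likelihood test, condition only, all 8 libraries, no filter on low counts), with Benjamini-Hochberg adjustment over all genes and a threshold of 0.05. Sex and its interaction with morphine were tested in further fits. DESeq2 1.42.0 and limma-voom (limma 3.58.1) were alternatives, together with other scalings, filters, rows per gene, marker scores as covariates and omission of each library. The code was tested on simulated data. CPM per kb used the length of the GENCODE vM21 transcript matched to the accession. Gene coordinates and promoters are RefSeq's on GRCm38. Likeness used log2 CPM with a prior count of 2 over genes with a mean of at least 1 CPM. The kept rows held 31151106 to 47582947 counts per library, with 38 to 5063 counts per receptor. The full depth was higher, because the other transcript rows were dropped. Named genes are all 10 receptors, the other serotonin receptors of the table, the 2 genes of lowest P in each signaling list, the 3 genes most like each receptor and, from the first 3 of each marker list, those beside a result. For Htr1b, 1 of the 3 is not reported here. The receptors and gene lists were chosen with earlier results of these data known.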

Additional observations from a re-analysis of the deposited data

Results flagged for a closer look

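Htr1a was singled out because the measured difference between morphine and control libraries had opposite signs in the sexes. The female effect minus the male effect was 0.86 on the log2 scale (SE 0.30, unadjusted P = 0.0139, adjusted P = 1 in edgeR), with both male morphine libraries below both male controls and both female morphine libraries above both female controls. Leaving out each library in turn gave 0.66 to 1.03. The share of genes that separate in this way by chance was not counted. The unadjusted P comes from the same libraries that raised the flag. Whether the signs differ beyond chance is therefore not decided by these values.

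Htr2c in control replicate 2, at 103 CPM, stood apart from the other 3 control libraries (58.9 to 62.7 CPM) by Dixon's criterion. Of 20 groups of 4 libraries tested, 1 was singled out, and chance alone singles out about 1 in 20. Without that library the log2 fold change of Htr2c was 0.37, against 0.15 with it. In the same library, the sum of serotonergic neuron markers was 6.46 CPM, against 2.33 to 3.42 CPM in the other control libraries, and the relation of the 2 values was not tested. Microglial (5.22 CPM) and endothelial (5.65 CPM) sums were also highest in that library. Of the morphine libraries with high Htr2c, replicate 3 (96.7 CPM) had a serotonergic sum of 3.20 CPM and replicate 8 (104 CPM) one of 4.65 CPM.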

How the results depend on the processing

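Over 21 alternative settings, 185 of 210 fold changes of the receptors kept their direction and side of the threshold, 23 changed sign and 2 passed the threshold (Htr4 in DESeq2, without and with sex). Htr1b, Htr1f and Htr4 never changed sign. The number of receptors called was 1 in DESeq2 and 1 in DESeq2 with sex in the model. Against 37 genes called for morphine, DESeq2 called 502, DESeq2 with sex 433, edgeR with sex 110, limma-voom 23, filterByExpr 14, a minimum of 10 counts in every library 15 and the sum over transcripts 22. With marker scores in the edgeR fit the numbers were 0 (choroid plexus, 643 at an unadjusted P under 0.05), 1 (telencephalic) and 0 (medial habenula, 1016 unadjusted). Leaving out each library gave 0 to 77: 0 without morphine replicate 4 (1697 unadjusted) or 8 (1664), 1 without control replicate 1, 11 without morphine replicate 7, 20 without control replicate 5, and 77 without control replicate 6 or morphine replicate 3. For sex, DESeq2 called 21 genes, edgeR 0 with filterByExpr (495 unadjusted) or a minimum of 10 counts (458), and 0 to 5 with a library left out. For the interaction, DESeq2 called 4, and 0 to 5 were called with a library left out, 5 without control replicate 6.

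Log2 fold changes that changed sign were Htr1a with upper-quartile scaling (-0.014) and filterByExpr (-0.0073). With the choroid plexus score they were Htr5a (-0.38), Htr5b (-0.28), Htr2a (-0.41), Htr2c (-0.12), Htr3a (-0.86) and Plcb4 (0.24). With the telencephalic score they were Htr5a (-0.18), Htr5b (-0.28), Htr2a (-0.072), Htr7 (0.094), Htr3a (-0.45), Htr3b (0.077, on 0 to 9 counts), Plcb4 (0.13) and Plcb1 (-0.21), and with the medial habenula score Htr5a (-0.10), Htr5b (-0.24) and Htr3a (-0.32). With a library left out, the ranges were -0.12 to 0.15 for Htr1a, -0.042 to 0.36 for Htr1d, -0.069 to 0.14 for Htr5a, -0.072 to 0.26 for Htr5b, -0.015 to 0.37 for Htr2c and -0.24 to 0.48 for Htr3a. The causes were not tested. The longest transcript as length, chosen after seeing the data, moved Htr1b from 9.81 to 2.64 CPM per kb. Summing over transcripts lowered the CPM of every receptor to 0.683 to 0.689 of its value. Each receptor has a single row, so its counts stayed the same and only the library total they were divided by grew. At 38 to 95 counts, Htr1f had the fewest counts of the 10 receptors. No paired analysis was possible because the control and morphine libraries share no replicate numbers.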
